A study of Homo sapiens with 24 samples.

Results

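The mRNAs of the human proteasome were followed through actinomycin D treatment and knockdown of 3 RNA-binding proteins in HepG2, an established human hepatocellular carcinoma line. Members were all protein-coding genes whose symbol runs from PSMA to PSMG followed by a number, which gave 48 of 58676 gene rows. Of these, 46 passed the filter on low counts (a CPM, the count scaled to library size, of at least 1 in at least 2 libraries) and were tested among 13136 genes. The 2 others were PSMA8, the alpha subunit of testis, and PSMB11, the beta subunit of thymus, and neither had a read in any of the 24 libraries, where the limit of 3 reads amounts to at most 0.0942 CPM per library.

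HepG2 cells received siControl, a control siRNA, or siRNA against IGF2BP1 (siIGF2BP1), IGF2BP2 (siIGF2BP2) or IGF2BP3 (siIGF2BP3), related proteins that bind mRNA. Each transfection was collected at 0 h, 3 h or 6 h of actinomycin D, which stops transcription, so that the 3 h and 6 h groups report mRNA made before it. Each of the 12 groups has 2 libraries. The knockdowns were transient and partial, all cells are one cancer line, and the plates of one transfection were re-seeded from a single plate, so p-values measure the spread between these libraries, which may be technical.

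The proteasome degrades proteins marked with ubiquitin. Its barrel-shaped core particle has outer rings of alpha subunits (PSMA) and inner rings of beta subunits (PSMB), of which PSMB5, PSMB6 and PSMB7 cut the substrate. Interferon-inducible PSMB8, PSMB9 and PSMB10 take their places in the immunoproteasome, which shapes peptides for antigen presentation. A regulatory particle of ATPases (PSMC) and other subunits (PSMD) recognises, unfolds and feeds the substrate, the PSME activators and the inhibitor-like PSMF1 bind the core, and the PSMG chaperones with PSMD5, PSMD9 and PSMD10 help to assemble the particles without being part of the finished machine.

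Libraries held 31843248 to 74252042 gene reads, of which members took 0.599% to 0.7015%. ERCC spike-in reads, from synthetic RNA added per amount of total RNA, ranged from 50889 to 119088. The limit given for a count of 0 covers counting error only. Averaged over the time points, IGF2BP1 mRNA in siIGF2BP1 was at 17.7% of siControl, IGF2BP2 in siIGF2BP2 at 23.0% and IGF2BP3 in siIGF2BP3 at 29%. All 8 HepG2 markers examined (such as ALB, AFP and APOB) were between 38.6 and 42400 CPM, whereas the 8 markers of leukocytes, endothelium and fibroblasts stayed at or below 2.11 CPM.

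Per length, the members spanned more than 2 orders of magnitude in siControl at 0 h. PSMA7, an alpha subunit, was at 457 ± 8.02 RPKM (CPM per kilobase of canonical transcript, SD, n = 2), and PSME1, a subunit of the interferon-inducible activator, was at 431 ± 10.4 RPKM. Of the catalytic subunits, PSMB5 stood at 201 ± 11.8 RPKM, PSMB6 at 143 RPKM and PSMB7 at 85.3 RPKM. Their inducible counterparts were far lower, with PSMB8 at 16.7 ± 0.0556 RPKM, PSMB10 at 2.17 ± 0.903 RPKM and PSMB9 at 1.22 ± 0.159 RPKM. PSMB10 had 1.54 and 2.81 RPKM in the 2 libraries and PSMB9 had 1.34 and 1.11 RPKM, so these neighbours in the order differed by about the spread of PSMB10 itself. The 7 assembly factors ranged from 1.09 RPKM for PSMD9 to 37 RPKM for PSMG4, below the 7 constitutive beta subunits, whose lowest member was PSMB2 at 29.2 RPKM, except for PSMG1 at 32.4 RPKM and PSMG4.

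**Figure D1:**
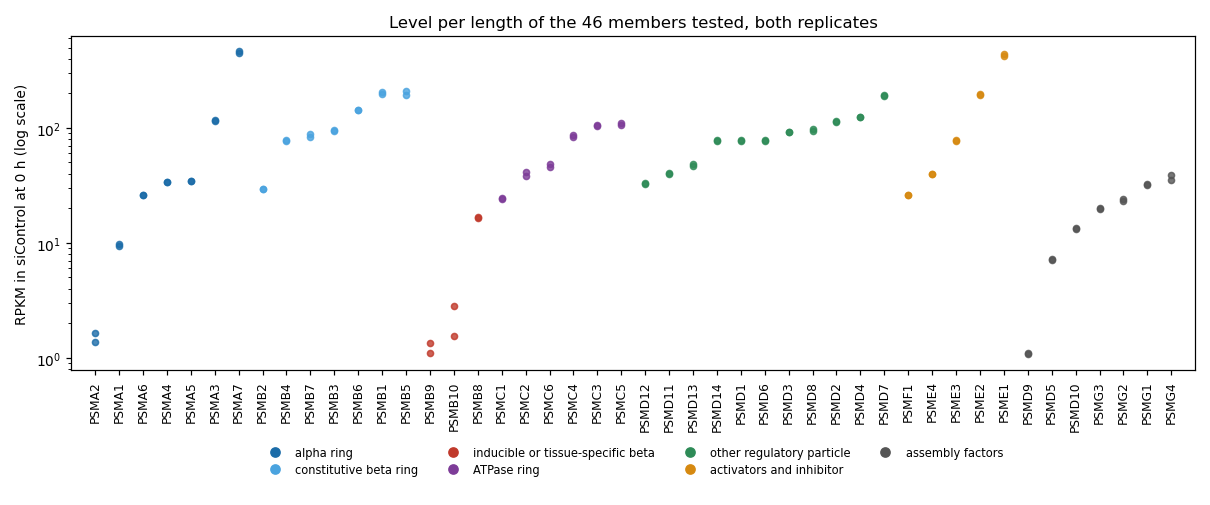
Level per length of each member in siControl at 0 h, in RPKM on a log axis; the points are the 2 libraries and the colours the role of the subunit. PSMA7 and PSME1 lie above 400 RPKM, and PSMB9 and PSMD9 near 1 RPKM.

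The counting bears on 5 of the low values. PSMA1, PSMA2, PSMA6, PSMB10 and PSMD9 share between 28.8% (PSMD9) and 100% (PSMA2) of their canonical transcript with another gene row on the same strand, in part read-through genes, and their counts are uncertain. Another 44 gene rows are pseudogenes named after 17 of the members, so reads of near-identical copies could be split as well.

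The loss of each member after actinomycin D was examined first in siControl. On the ERCC scale, 34 of 46 members fell over 6 h (adjusted p under 0.05), where 80.3% of all genes tested fell, and 0 rose, where 0.251% of all genes rose; PSME1 alone lay above 0. DESeq2 called 33. In bulk samples, fewer cells and less RNA per cell cannot be told apart. The median member changed by -0.44 (log2 over 6 h), against -0.88 for all genes, so the members lost less than the typical mRNA. PSMD5, which chaperones the base of the regulatory particle (chromosome 9, 120815496 to 120842951, minus strand, hg38), fell most, with 28.8% and 27.9% of its 0 h mean left in the 2 libraries at 6 h. Its fitted change was -1.82 ± 0.12 (log2, SE, adjusted p 3.63e-12).

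Assembly factors took 4 of the 5 largest falls. PSMG2 (chromosome 18, 12658043 to 12728945, plus strand), a chaperone of the alpha ring, kept 29.1% and 28.1% at 6 h, a change of -1.80 ± 0.14 (adjusted p 8.14e-11). Its partner PSMG1 changed by -1.04 ± 0.11, and PSMG3 and PSMG4, which form another chaperone pair, changed by -1.52 ± 0.11 and -1.34 ± 0.09. The 7 assembly factors had a median change of -1.34 and 6 of them fell, all but PSMD9 (-0.32 ± 0.20). PSMD10 changed by -0.42 ± 0.12, close to the median of all members, so the assembly factors were not uniform.

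**Figure D2:**
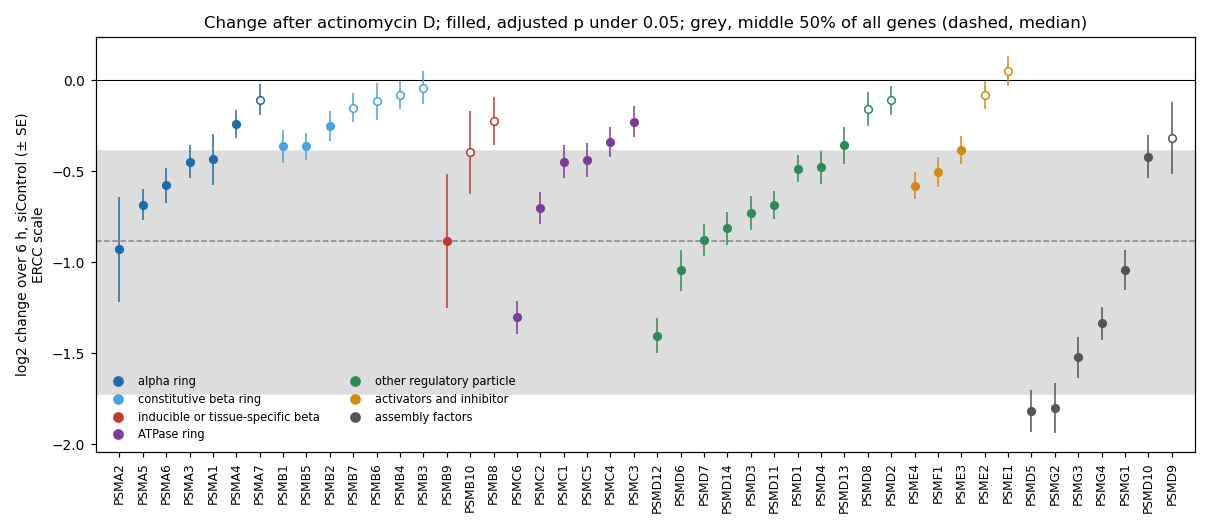
Fitted log2 change over 6 h of actinomycin D in siControl on the ERCC scale, with its SE, for the 46 members by role. Filled points have an adjusted p under 0.05, the dashed line is the median of all genes (-0.88) and the grey band their middle 50%; PSMD5 and PSMG2 lie lowest, and the constitutive beta ring lies above the band.

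Structural subunits differed widely among themselves. All 7 constitutive beta subunits lay between -0.36 and -0.04 with a median of -0.15, and only PSMB1, PSMB2 and PSMB5 fell. PSMB5 kept 81.7% and 74% of its 0 h mean at 6 h, which is above every 6 h value of PSMD5 or PSMG2. Among the ATPases, PSMC6 stood apart at -1.30 ± 0.09 (adjusted p 1.7e-11), with 40.8% and 40.3% left, while the other 5 lay between -0.70 and -0.23. Among the 11 other subunits of the regulatory particle, the lid subunit PSMD12 changed by -1.40 ± 0.10 and PSMD6, also of the lid, by -1.05 ± 0.11. PSMD14, which removes ubiquitin from substrates, changed by -0.81 ± 0.09 and its binding partner PSMD7 by -0.88 ± 0.09, a gap smaller than either SE. PSMD2, the large scaffold that receives ubiquitin shuttle proteins, was at -0.11 ± 0.08 (adjusted p 0.208), and the ubiquitin receptor PSMD4 at -0.48 ± 0.09.

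Of the activators and the inhibitor, only PSME1 and PSME2 were near the top of the order. PSME1 had 108% and 99.5% of its 0 h mean at 6 h, a change of 0.05 ± 0.08 (adjusted p 0.583), and PSME2, its partner, changed by -0.08 ± 0.08. The nuclear activator PSME3 fell by 0.38, PSME4 by 0.58 and PSMF1 by 0.50 on the log2 scale. Of the inducible beta subunits, PSMB8 was at -0.22 ± 0.13 (adjusted p 0.127) and PSMB10 at -0.40 ± 0.23 (adjusted p 0.116). PSMB9, with 24 to 108 reads per library, was at -0.88 ± 0.37 (adjusted p 0.0335), a call that was lost without siControl 0 h replicate 1 (-0.55, adjusted p 0.26) and without either of 2 further libraries, siControl 0 h replicate 2 and siControl 6 h replicate 1.

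**Figure D3:**
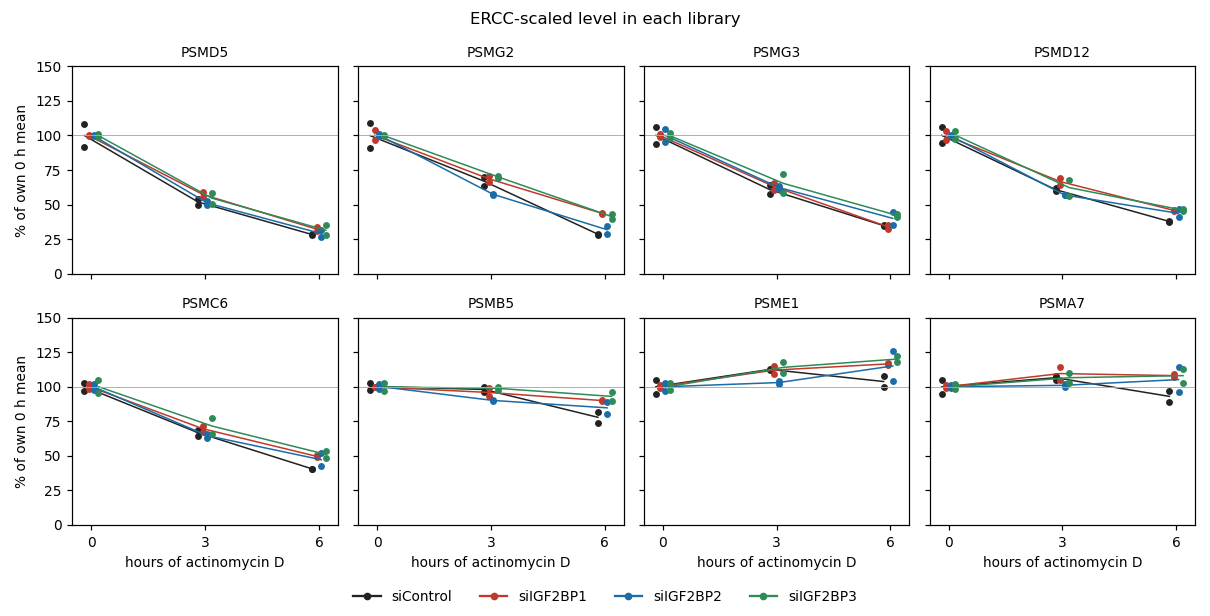
ERCC-scaled level of 8 members in each library, as a percentage of the 0 h mean of the same condition, over hours of actinomycin D; lines join the means of 2 libraries. PSMD5 falls to 28.8% and 27.9% in siControl, whereas PSME1 stays near or above 100%.

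These values depend on what an unchanged mRNA is taken to be. The ERCC scale measures loss per amount of total RNA, and the 2 siControl libraries at 0 h differed on it, with 762 and 666 gene reads per ERCC read. On the TMM scale, which sets the typical mRNA near 0 (median of all genes -0.02), the median member was at 0.43, 31 members rose, where 36.3% of all genes rose, and 7 fell, where 38.7% did. The distance between the median member and the median gene was 0.44 on both scales. This follows from the scaling, which shifts all genes by about the same amount, and is no separate check.

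As half-lifetimes from first-order decay in siControl, the shortest were 3.23 h for PSMD5, 4.05 h for PSMG2 and 4.06 h for PSMG3. The median assembly factor was at 4.41 h, the median alpha subunit at 11.7 h and the median ATPase at 24.8 h. PSMA7, PSMB3, PSMB4, PSMB6, PSMB7, PSMD2, PSMD8 and PSME1 had no measurable fall, and among the members with one, the longest values were 307 h for PSME2, 80.9 h for PSMC3 and 56.1 h for PSMB8, far past the 6 h observed and thus not bounded by these data. The median member was at 16.7 h in siControl, against 6.76 h for all genes. The member median was 32.2 h under siIGF2BP1, 23.3 h under siIGF2BP3 and 16.6 h under siIGF2BP2. The median of all genes was 8.32 h, 8.59 h and 7.11 h in that order. However, the replicates of siControl alone gave member medians of 13.2 h and 26.1 h, and those of siIGF2BP1 gave 58.9 h and 22.0 h.

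Averaged over the 4 conditions, the slopes were estimated more tightly. In this mean 36 members fell, where 81.7% of all genes fell, and 1 rose, where 4.75% rose. The member that rose was PSME1, by 0.18 ± 0.04 (log2 over 6 h, adjusted p 0.000251), and the long-lived transcripts examined beside it (such as GAPDH, FTL and APOA1) had a median of 0.18 with 7 of 8 called as rising. PSMD5 (-1.73 ± 0.06), PSMG2 (-1.48 ± 0.07) and PSMG3 (-1.41 ± 0.06) again lay lowest, followed by PSMD12 (-1.21 ± 0.05), PSMG4 (-1.10 ± 0.05) and PSMC6 (-1.09 ± 0.05). The constitutive beta ring had a median of 0.00.

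The 3′ UTRs of the members were short, with a median of 328 bases in the canonical transcripts against 1324 bases for 11361 protein-coding genes tested. Words known from unstable mRNAs were counted in them. The AU-rich nonamer TTATTTATT, read on the transcript strand, was in the 3′ UTR of 2 of 46 members (4.35%, all genes 9.4%), the Pumilio word TGTANATA in 6 (13.0%, all genes 29.8%), and the pentamer ATTTA, which the nonamer contains, in 23 of 46 (all genes 72.7%). The 3 windows of 30 bases from short-lived members below are printed because they hold these words (capitals), in PSMG1 at chr21:39175299-39175328, minus strand, in PSMD12 at chr17:67338992-67339021, minus strand, and in PSMG4 at chr6:3267747-3267776, plus strand, each within the 3′ UTR exon of the canonical transcript in hg38. The 3′ UTR of PSMG1 has 4 overlapping copies of the nonamer, all within its window, and the capitals mark a single copy.
PSMG1: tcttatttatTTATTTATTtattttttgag
PSMD12: tattgttaacaTGTAAATAaaattggagct
PSMG4: tacaatgtacgTGTAAATAaatggattgaa

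The Pumilio word was also in PSMA2, PSMC2, PSMA5 and PSMF1, whose changes were -0.93 ± 0.29, -0.70 ± 0.09, -0.68 ± 0.09 and -0.50 ± 0.08, so all 6 members that held it lay below the median member (-0.44), which was not tested. The nonamer was also in PSMB2, whose change was -0.25 ± 0.08, while PSMD5, PSMG2, PSMG3 and PSMC6 had neither word. Across the 46 members, 3′ UTR length and siControl slope had Pearson's r = -0.30 (log10 length) and Spearman's rho = -0.40, and across all 11361 genes r = -0.16 and rho = -0.24. Level per length and slope had r = 0.37 and rho = 0.47 across the members. These are descriptions over genes that share the same libraries and counting.

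Whether a knockdown changed the loss of the members was tested as a slope difference against siControl. No member passed in any knockdown. In siIGF2BP1, 0.0152% of all genes lost less and 0.0% lost more. In siIGF2BP2 both shares were 0.0%, and in siIGF2BP3 they were 0.0228% and 0.0%. At an unadjusted p under 0.05, 8 members in siIGF2BP1, 1 in siIGF2BP2 and 14 in siIGF2BP3 passed. Of all 13136 genes, 1436, 896 and 2113 passed that cut. DESeq2 called 0 members in each knockdown, beside 4, 6 and 27 of all genes. The median member slope difference (log2 over 6 h) was 0.22 under siIGF2BP3, where that of all genes was 0.22, then 0.21 under siIGF2BP1, where it was 0.19, and 0.15 under siIGF2BP2, where it was 0.17, and a member's slope difference had a median SE of 0.13, so that small differences were not detectable. All 3 contrasts share the siControl libraries. PSMG2 had slope differences of 0.60 ± 0.19 in siIGF2BP1 (adjusted p 0.423), 0.15 ± 0.19 in siIGF2BP2 (adjusted p 0.739) and 0.53 ± 0.19 in siIGF2BP3 (adjusted p 0.277). At 6 h it kept 44.1% and 43.1% in siIGF2BP1, 28.9% and 34.8% in siIGF2BP2 and 43.4% and 39.4% in siIGF2BP3. Without siControl 0 h replicate 2, the siIGF2BP3 slope differences were 0.74 for PSMG2, 0.59 for PSMD6, 0.47 for PSMD7 and 0.44 for PSMB1. These members were chosen here after their values were seen. Leaving out single libraries moved the median member in siIGF2BP3 between 0.151 and 0.332, and the values of all genes in those fits are not given here.

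Abundance was compared next on the TMM scale, as the mean over the 3 time points and at 0 h alone. The mean counts libraries of different time points as separate samples, although their plates may have been re-seeded from the same transfection. In siIGF2BP1, 21 members rose, where 21.2% of all genes rose, and 3 fell, where 18.5% fell. The median member differed by 0.06 (log2) and the median gene by 0.00, so the shifts were small. At 0 h, 7 members rose, where 9.43% of all genes rose, and 1 fell, where 6.5% fell.

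PSMD5 rose by 0.33 ± 0.05 over the time points in siIGF2BP1 (adjusted p 3.23e-06), the largest change among members over 2 CPM. It was at 26.8 and 27.2 TMM-scaled CPM at 0 h in siIGF2BP1 and at 22 and 21.4 in siControl. At 3 h it was at 19.9 and 20.3 against 14.8 and 16.1, and at 6 h at 14.3 and 13.4 against 11 and 11.6. The groups did not overlap at any time. PSMD2 went the other way, with 258 and 256 TMM-scaled CPM at 0 h against 295 and 297, and 421 and 420 at 6 h against 497 and 505. Its difference was -0.24 ± 0.02 (adjusted p 1.1e-13) over the time points and -0.20 ± 0.03 (adjusted p 5.48e-06) at 0 h.

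The other rises in siIGF2BP1 were spread over every role. Of the ATPases, PSMC4 rose by 0.17 ± 0.02 (adjusted p 1.26e-08), from 131 and 135 to 151 and 153 TMM-scaled CPM at 0 h, and PSMC6 by 0.16 ± 0.03. Of the beta ring, PSMB6 rose by 0.16 ± 0.02 and PSMB1 by 0.13 ± 0.02, and 4 of 7 members rose in all. Of the regulatory particle other than ATPases, 7 of 11 rose, PSMD14 (0.14 ± 0.02) and PSMD4 (0.10 ± 0.02) among them. PSME2 rose by 0.14 ± 0.02, PSME4 by 0.06 ± 0.02 and PSMF1 by 0.06 ± 0.02, of which the PSME4 call was lost without siControl 6 h replicate 1 (adjusted p 0.14) and the PSMF1 call without any 1 of 3 libraries (adjusted p up to 0.0807). The alpha ring had 1 rise, PSMA7 (0.09 ± 0.02), and 1 fall, PSMA3 (-0.15 ± 0.03). PSMG2 rose by 0.15 ± 0.05 and its fellow chaperone PSMG4 fell by 0.14 on the log2 scale, calls that were lost without siIGF2BP1 3 h replicate 2 (PSMG2, adjusted p 0.0672) and without siControl 0 h replicate 2 or siControl 6 h replicate 2 (PSMG4, adjusted p 0.0557 and 0.0538).

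PSMB9 had the largest fitted rise, 0.63 ± 0.21 (adjusted p 0.0138), from very few reads. It was at 1.31 and 1.2 TMM-scaled CPM at 0 h, 1.87 and 1.16 at 3 h and 1.99 and 1.81 at 6 h, against 1.22 and 1.01, 0.605 and 0.955, and 1.05 and 1.18 in siControl, so the groups overlapped at 0 h and were apart at 3 h and 6 h. The call was lost without siControl 3 h replicate 1 (adjusted p 0.0543) and without siIGF2BP1 3 h replicate 1 (adjusted p 0.0803). At 0 h the members that rose were PSMD5 (0.31), PSMC4 (0.19), PSMB6 (0.17), PSME2 (0.17), PSMB4 (0.14), PSMB3 (0.14) and PSMA7 (0.09). Leaving out siControl 0 h replicate 2 reduced the 7 to 3, without PSMD5 (adjusted p 0.0828), PSMB4 (0.0994) and PSMB3 (0.105) among them, and leaving out siIGF2BP1 0 h replicate 2 reduced them to 4. Without the latter library PSMB4 was at 0.07 (adjusted p 0.474) and PSMB3 at 0.06 (adjusted p 0.625), and each of these calls was lost without any 1 of 3 of the 4 libraries compared.

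**Figure D4:**
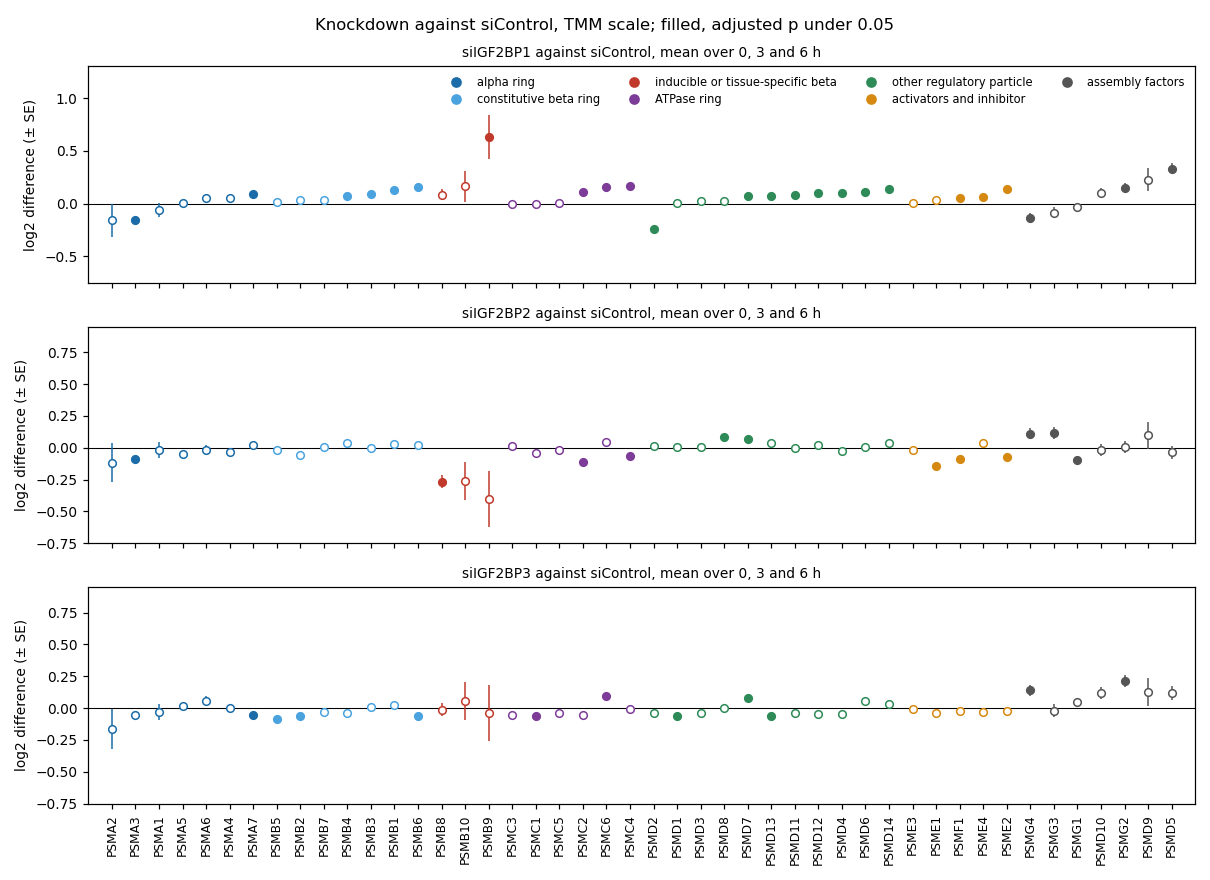
Log2 difference of each member between knockdown and siControl, averaged over the 3 time points on the TMM scale, with its SE, by role; filled points have an adjusted p under 0.05. In siIGF2BP1 most points lie above 0 with PSMD2 at -0.24, and in siIGF2BP2 the inducible beta subunits lie below 0.

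In siIGF2BP2, 8 members fell, where 16.7% of all genes fell, and 4 rose, where 17.1% rose. The median member was at -0.01. At 0 h 1 member rose, where 6.65% of all genes rose, and 0 fell, where 5.47% fell. At an unadjusted p under 0.05, 6 members passed, beside 3032 of all 13136 genes, and DESeq2 called 2, beside 1660 of all genes. The member that rose was PSMD7 (0.10 ± 0.03, adjusted p 0.0363), and its call was lost on leaving out any 1 of the 4 libraries compared (adjusted p 0.112 to 0.218).

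The largest called fall in siIGF2BP2 was that of the inducible beta subunit PSMB8 (chromosome 6, 32840717 to 32844679, minus strand). It was at 15.5 and 15.4 TMM-scaled CPM at 0 h, 16.5 and 20.2 at 3 h and 20.1 and 20.7 at 6 h. In siControl the values were 16.8 and 16.8, 24.1 and 22.0, and 27.7 and 24.6, so each siIGF2BP2 group lay below its siControl group. The difference was -0.27 ± 0.05 (adjusted p 4.38e-05). The activator subunits PSME1 and PSME2 were lower too, by -0.14 ± 0.02 (adjusted p 9.03e-08) and -0.08 ± 0.02 (adjusted p 0.00355). PSME1 was at 341 and 358 TMM-scaled CPM at 0 h and at 623 and 657 at 6 h, against 367 and 377 and 701 and 705 in siControl.

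The other inducible beta subunits, PSMB9 at -0.40 and PSMB10 at -0.26, did not pass in siIGF2BP2. They had 24 to 108 and 66 to 204 reads per library, and whether this kept them from passing was not tested. The remaining falls were those of the ATPases PSMC2 (-0.11 ± 0.03) and PSMC4 (-0.06 ± 0.02), PSMF1 (-0.09 ± 0.02), PSMA3 (-0.09 ± 0.02) and PSMG1 (-0.10 ± 0.04), of which the last was lost without any 1 of 6 of 12 libraries (adjusted p up to 0.112). The rises were those of PSMG3 (0.12 ± 0.05), PSMG4 (0.11 ± 0.04), PSMD8 (0.08 ± 0.02) and PSMD7 (0.07 ± 0.02), and those of PSMG3 and PSMG4 were near the threshold (adjusted p 0.0482 and 0.0495) and lost without any 1 of 8 and 9 of 12 libraries. No constitutive beta subunit passed in siIGF2BP2.

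**Figure D5:**
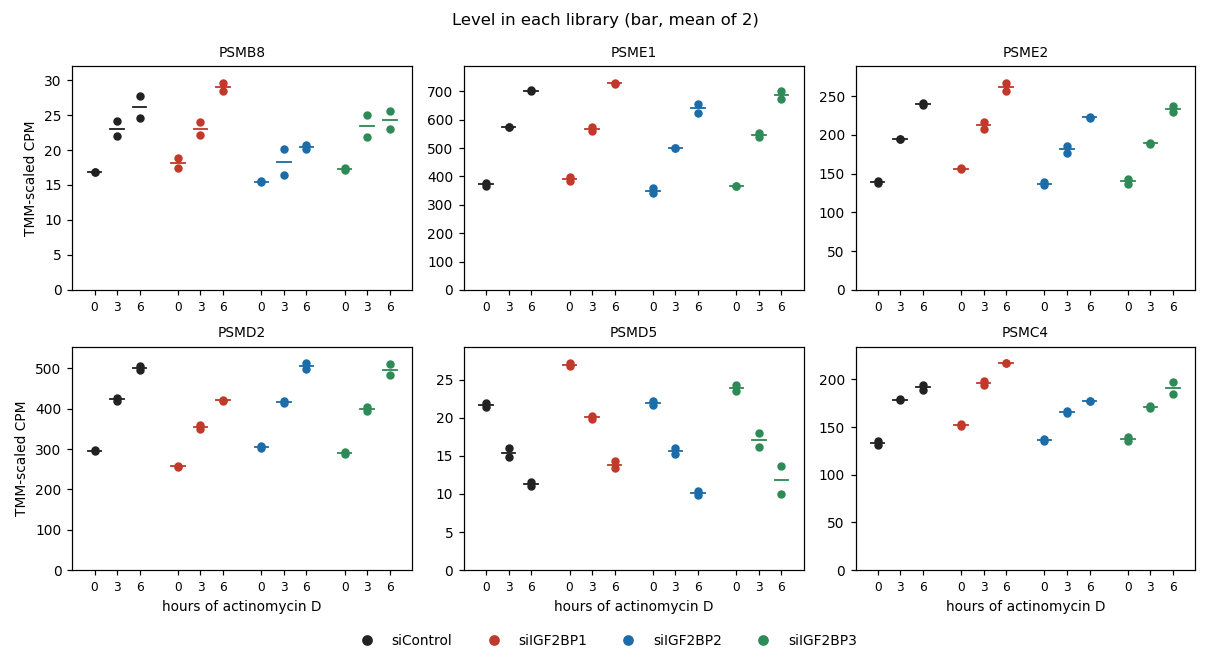
TMM-scaled CPM of 6 members in each of the 24 libraries, by condition and hours of actinomycin D, with bars at the mean of 2. At each time PSMB8 and PSME1 lie lower in siIGF2BP2 than in siControl, and in siIGF2BP1 PSMD2 lies lower and PSMD5 and PSMC4 higher than in siControl.

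The promoters of these interferon-inducible members are shown because PSMB8, PSME1 and PSME2 were lower together in siIGF2BP2. RefSeq windows of 250 bases before to 50 after a start (GRCh38.p14) were matched for 42 of the 48 members, in 51 windows. PSMD4, PSMB1, PSMB6, PSMB7, PSMA7 and PSMG3 had none. The word of interferon-stimulated elements, GAAA repeated after any 2 bases and searched on both strands, was in 7 of 51 member windows (13.7%) and in 3.57% of all 35116 windows. The matches of PSMB8 (chr6:32844032-32844061, plus strand), PSME1 (chr14:24136189-24136218, minus strand), PSME2 (chr14:24146619-24146648, minus strand) and PSMB10 (chr16:67936852-67936881, minus strand) are printed with the word in capitals, on the strand where it reads forward, and that of the chaperone PSMG4 (chr6:3258904-3258933, plus strand) beside them since it rose in siIGF2BP2.
PSMB8: aggaggaagtGAAAGCGAAAgccacagatc
PSME1: accgcgaaggGAAAGCGAAAgcggtagggc
PSME2: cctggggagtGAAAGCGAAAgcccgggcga
PSMB10: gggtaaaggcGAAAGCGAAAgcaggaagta
PSMG4: ttccggggccGAAAGCGAAAgcgcgctcgg

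All 5 held the same 10 letters, GAAAGCGAAA. The match of PSMB8 lay across the start of its second RefSeq window, and the window at its canonical start had none. That of PSME1 lay just after the start. PSMB9 had no match in its window. The 2 further matches, in PSMB4 and PSMA4, had other letters at the free positions. A match is a description of letters in a window and was not tested as a site.

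The word TGACNNNGC, a core of the element through which NFE2L1 and NFE2L2 raise proteasome genes, was in 15 of 51 member windows (29.4%) and in 13.3% of all windows, searched on both strands. It was found for PSMD5, PSMD12, PSMG1 and PSMG2, and for PSME1, PSME2 and PSMC4. The other members with it were PSMA4, PSMB3, PSMB9, PSMC5, PSMD1, PSMD3, PSMD9 and PSME4. A relation to loss or to the knockdowns was not tested.

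In siIGF2BP3, 4 members rose, where 16.2% of all genes rose, and 7 fell, where 16.0% fell, with a median member of -0.03. At 0 h 0 members rose, where 4.93% of all genes rose, and 0 fell, where 4.47% fell. At an unadjusted p under 0.05, 2 members passed at 0 h, beside 2720 of all 13136 genes, and DESeq2 called 0, beside 1402 of all genes.

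The rises in siIGF2BP3 included a pair of assembly factors. PSMG2 rose by 0.21 ± 0.05 (adjusted p 0.000499). It was at 24.8 and 23.6 TMM-scaled CPM at 0 h, at 23.0 and 21.4 at 3 h and at 15.8 and 15.5 at 6 h, against 23.1 and 21.8, 21.6 and 19.7, and 11.4 and 12 in siControl, so the groups were furthest apart at 6 h and overlapped at 3 h. PSMG4 rose by 0.14 ± 0.04 (lost without any 1 of 3 of 12 libraries, adjusted p up to 0.0703), PSMC6 by 0.09 ± 0.03 (lost without any 1 of 6, up to 0.228) and PSMD7 by 0.08 ± 0.02 (adjusted p 0.0012). The falls were small, from PSMB5 (-0.09 ± 0.02, adjusted p 0.00128) to PSMA7 (-0.05 ± 0.02), with PSMB2, PSMB6, PSMC1, PSMD1 and PSMD13 at -0.06 each. PSMB5 was at 176 and 180 TMM-scaled CPM at 0 h against 181 and 195. The calls of PSMB2, PSMC1 and PSMD13 were lost without any 1 of 6 to 9 of 12 libraries, and that of PSMB6 without any 1 of 3. The inducible members PSMB8 (-0.01), PSME1 (-0.04) and PSME2 (-0.02) did not pass.

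These directions hold relative to the typical mRNA. On the ERCC scale the median of all genes itself lay above siControl, at 0.18 under siIGF2BP3, 0.15 under siIGF2BP2 and 0.06 under siIGF2BP1, and the members moved with it, so that 41 members were called higher and 0 lower in siIGF2BP3, where 52.9% of all genes were called higher. In siIGF2BP2, 25 were called higher and 0 lower on that scale, where 44.2% and 3.86% of all genes were. In siIGF2BP1, 21 were called higher and 1 lower, where 23.4% and 7.7% of all genes were. At 0 h no member passed on the ERCC scale. There, 1.93% of all genes were called higher and 3.01% lower in siIGF2BP1, 4.29% and 1.29% in siIGF2BP2, and 2.95% and 0.632% in siIGF2BP3. The distance between the median member and the median gene was -0.03 under siIGF2BP3, -0.02 under siIGF2BP2 and 0.06 under siIGF2BP1. It was the same on both scales because a change of scale shifts all genes by about the same amount.

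The knockdowns were also compared with each other over the time points, without the siControl libraries. Against siIGF2BP2, 24 members were higher in siIGF2BP1, where 22.4% of all genes were, and 4 were lower, where 20.6% were. The largest differences were those of PSMB9 with 1.04 ± 0.21 (adjusted p 0.000127), PSMB10 with 0.43 ± 0.15 (adjusted p 0.0212, lost without siIGF2BP2 0 h replicate 2 or 6 h replicate 2), PSMD5 with 0.37 ± 0.05, PSMB8 with 0.35 ± 0.05 (adjusted p 3.14e-07), PSMC4 with 0.23 ± 0.02 and PSME2 with 0.22 ± 0.02. PSME1 was higher by 0.18 ± 0.02. The lower ones were PSMD2 (-0.25 ± 0.02), PSMG4 (-0.24 ± 0.04), PSMG3 (-0.20 ± 0.05) and PSMA3 (-0.07 ± 0.03, lost without any 1 of 7 of 12 libraries).

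Against siIGF2BP3, 23 members were higher in siIGF2BP1, where 20.3% of all genes were, and 3 were lower, where 17.6% were. The higher ones included PSMB9 (0.67, lost without siIGF2BP1 3 h replicate 1 or siIGF2BP3 0 h replicate 1), PSMB6 (0.22 ± 0.02) and PSMD5 (0.21 ± 0.05), and the lower ones were PSMG4 (-0.27 ± 0.05), PSMD2 (-0.20 ± 0.02) and PSMA3 (-0.10 ± 0.03). Between siIGF2BP2 and siIGF2BP3, 11 were higher in siIGF2BP2, where 15.3% of all genes were, and 10 lower, where 15.1% were. The lowest that passed was PSMB8 (-0.26 ± 0.05, adjusted p 0.000144), followed by PSMG2 (-0.21 ± 0.05), and the highest was PSMG3 (0.14 ± 0.05, lost without any 1 of 6 of 12 libraries). On the ERCC scale the count of members higher in siIGF2BP1 dropped to 6 against siIGF2BP2 and to 1 against siIGF2BP3. The shares of all genes were 8.12% and 4.23%, and the median of all genes was at -0.08 and -0.12.

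Of 27 other genes of the pathway, 23 fell in siControl and 0 rose. The share of all genes that fell was 80.3%, so 23 of 27 was near it. The 3 genes of the list named next fell more than any member did. NFE2L2, a transcription factor of stress genes, changed by -3.56 ± 0.17, AKIRIN2, which brings proteasomes into the nucleus, by -3.78 ± 0.26 and the ubiquitin-binding ZFAND5 by -4.06 ± 0.18 (log2 over 6 h). ADRM1, a ubiquitin receptor of the regulatory particle, changed by -1.49 ± 0.11, while the small subunit SEM1 was at 0.11 ± 0.09 and the core maturation factor POMP at -0.24 ± 0.11. Over the time points, 11 of the 27 rose and 2 fell in siIGF2BP1, 8 rose and 4 fell in siIGF2BP2, and 6 rose and 4 fell in siIGF2BP3, beside shares of all genes of 21.2% and 18.5%, 17.1% and 16.7%, and 16.2% and 16.0%. ADRM1 rose by 0.31 ± 0.02 in siIGF2BP1 (adjusted p 1.17e-14), AKIRIN2 by 0.39 ± 0.05 and POMP by 0.11 ± 0.03. NFE2L1, which raises proteasome genes when the proteasome is blocked, fell by 0.14 on the log2 scale in siIGF2BP3 (adjusted p 2.2e-05) and was at -0.04 in siIGF2BP1 and 0.02 in siIGF2BP2.

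Of 9 genes of antigen presentation and its interferon control, 8 were tested, TAP2 being under the filter. In siIGF2BP2, 2 fell, where 16.7% of all genes fell, and 0 rose, where 17.1% rose. Those that fell were TAPBP (-0.23 ± 0.05), which loads peptides, and B2M (-0.12 ± 0.03), the light chain of class I molecules, whereas IRF1 (0.12 ± 0.13) and TAP1 (-0.05 ± 0.06) did not pass. In siIGF2BP3, where PSMB8 did not pass, 1 rose, where 16.2% of all genes rose, and 4 fell, where 16.0% fell. Those that fell were TAPBP (-0.21 ± 0.05), B2M (-0.11 ± 0.03), ERAP1 (-0.21 ± 0.03) and GBP1 (-0.51 ± 0.13), and the gene that rose is not named here. In siIGF2BP1, 3 rose, where 21.2% of all genes rose, and 1 fell, where 18.5% fell. TAP1 (0.17 ± 0.06) and GBP1 (0.38 ± 0.12) were among those that rose, and ERAP1 fell by 0.13. Of the 8 markers of other cells, the leukocyte genes PTPRC and CD3E had at most 1 read in any library. Of the 2 that could be tested, the endothelial PECAM1, at most 1.37 CPM, was lower in siIGF2BP1 (-0.57, adjusted p 0.0434) and in siIGF2BP2 (-0.57, adjusted p 0.0428) and CD14 did not pass, and their part in these results was not tested.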

How the data were processed

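The authors trimmed reads with Trimmomatic 0.39, aligned them to hg38 with HISAT2 2.1.0 (submitters' notes), assigned them to GENCODE genes with HTSeq and deposited the raw counts, with 92 ERCC rows and 5 summary rows per library. Summary rows (13.551% to 17.064% of each total) and 45 rows of the Y copy of pseudoautosomal genes were left out. Symbols and positions came from GENCODE release 44, and 469 identifiers had no match. Multi-mapping settings are not given in the sources used here.

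Groups came from the labels. edgeR 4.0.16 quasi-likelihood tests (R 4.3.3, two-sided, Benjamini-Hochberg over 13136 genes, threshold 0.05) were fitted on 12 group means with TMM scaling for abundance and on a slope per condition with ERCC scaling for decay. Standard errors derive from the effect and its F statistic. Both fits were run on simulated counts, the slope fit with library-size scaling, so the noise of ERCC scaling was not covered. The outcomes are not given here. Half-lifetime is ln2/K, with K the mean of the first-order rates to 3 h and to 6 h. Displayed levels are CPM, TMM-scaled CPM, RPKM on canonical transcript length, or percent of the 0 h mean on the ERCC scale.

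Members named are the catalytic subunits, PSMD2, PSMD4, PSMD14, activators, PSMF1 and assembly factors, up to 6 called members per direction and comparison, the 3 shortest and 3 longest half-lifetimes, and members under the filter. Members and lists were chosen with earlier results of these data known. Members named beyond this rule were chosen after their values were seen. In every group the 2 libraries differed beyond counting noise (chi-square over its degrees of freedom, 3.24 to 8.49), and all 24 were kept as separate samples. Alternatives were other scalings, DESeq2 1.42.0, other filters, fewer groups, 0 h to 6 h alone, a replicate block and each library left out. Some genes of the lists are not reported here.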

Additional observations from a re-analysis of the deposited data

How the results depend on the processing

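Scaling mattered most. With ERCC scaling of abundance, 0 members were called higher and 0 lower at 0 h in siIGF2BP1 (medians 0.031 in siIGF2BP1, 0.117 in siIGF2BP2, 0.089 in siIGF2BP3) and 0 higher in siIGF2BP2. Over the time points siIGF2BP1 had 1 lower (median 0.124), siIGF2BP2 25 higher and 0 lower (median 0.128) and siIGF2BP3 41 higher and 0 lower (median 0.153). Between knockdowns, 6 were higher in siIGF2BP1 than in siIGF2BP2 (median -0.004), 1 higher and 8 lower in siIGF2BP1 than in siIGF2BP3 (median -0.048) and 0 higher and 6 lower in siIGF2BP2 than in siIGF2BP3 (median -0.045). The shares of all genes higher and lower were 8.12% and 27.2%, 4.23% and 33.5%, and 5.52% and 12.6%, in that order. Of the abundance calls of named members, 38 held on the ERCC scale, 25 kept their direction but lost the call, and 11 reversed. The falls of PSMB8 and PSME1 in siIGF2BP2 were among the calls lost. Single falls reversed on that scale in siIGF2BP2 for PSMC2 (0.031), PSMG1 (0.040), PSMF1 (0.046), PSMA3 (0.053) and PSME2 (0.061), and in siIGF2BP3 for PSMB5 (0.094), PSMD1 (0.117), PSMC1 (0.116), PSMD13 (0.118), PSMB2 (0.121) and PSMB6 (0.119). With TMM scaling of decay, 31 members rose and 7 fell in siControl (median 0.427) and 34 and 8 in the mean of the 4 conditions (0.376), and the median slope differences were 0.015, -0.048 and -0.006 in siIGF2BP1, siIGF2BP2 and siIGF2BP3. Of all genes, 36.3% rose and 38.7% fell in siControl on the TMM scale, and 42.4% and 44.6% in the mean. The siControl slopes of PSME4 (0.294), PSMB5 (0.503), PSMD10 (0.450), PSMD14 (0.057), PSMF1 (0.365), PSME3 (0.487) and PSMD4 (0.39) reversed. With library-size scaling, 18 rose and 12 fell in siControl (median 0.106), 24 and 15 in the mean (0.078), the slope differences were 0.033, -0.004 and 0.023, and PSMB5 (0.182), PSMD10 (0.130), PSMF1 (0.044), PSME3 (0.166) and PSMD4 (0.070) reversed. Of all genes, 21.0% rose and 52.4% fell in siControl with that scaling, and 27.4% and 58.7% in the mean. Library-size scaling gave 4 rises at 0 h in siIGF2BP1 (median 0.039), where 7.65% of all genes rose, and 1 fall in siIGF2BP2, where 5.84% fell. The median in siIGF2BP3 was 0.001. Over the time points this scaling gave 8 rises in siIGF2BP2 (0.012), where 22.2% of all genes rose, and 1 fall in siIGF2BP3 (-0.009), where 13.2% fell. Its medians were 0.049 and 0.052 for siIGF2BP1 against siIGF2BP2 and siIGF2BP3. These scales differ by construction in what is held at 0. Half-lifetimes had no member median on the TMM scale, since 37 to 39 of 46 members had no measurable fall. From 0 h and 6 h alone the medians were 13.6 to 25.1 h.

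Other settings moved small counts, and the cause was not tested. At 0 h in siIGF2BP1, DESeq2 called 11 rises and no filter 4 (medians 0.041 with a CPM filter of 5, 0.044 with only the groups compared). In both directions together DESeq2 called 12 members there, beside 2272 of all genes. Shares of all genes are not given here for no filter, the CPM filter of 5 or only the groups compared. At 0 h in siIGF2BP2 the rises were 0 with no filter or a CPM filter of 5 (median 0.019) and 2 with only the groups compared (0.018), and 1 fall was called by DESeq2, with no filter, with a CPM filter of 5 and with only the groups compared. At 0 h in siIGF2BP3 the median was 0.002 with no filter or a CPM filter of 5 and 0.001 with only the groups compared. Over the time points the medians were 0.072 (DESeq2) and 0.048 (CPM filter of 5) in siIGF2BP1, and -0.006, -0.004 and -0.016 (no filter, with 2 rises) in siIGF2BP2. In siIGF2BP3, 3 fell with no filter and 3 with only the groups compared. For siIGF2BP1 the CPM filter of 5 gave 0.063 against siIGF2BP2 and 0.061 against siIGF2BP3 (DESeq2 0.079), and no filter gave 7 higher and 6 lower in siIGF2BP2 than in siIGF2BP3. From 0 h and 6 h alone, 2 members rose in the mean of the conditions and 1 slope difference was called in siIGF2BP1 (PSMG2) and 1 in siIGF2BP3 (PSMD6). Leaving out the 5 members with shared exons, chosen after seeing the data, changed no count by over 1.5 times.

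Replicate numbers showed little pairing of the libraries, with correlations of deviations between -0.042 and 0.181 (4 of 66 over 0.1). Between the time points of siIGF2BP3 the correlations were 0.096 to 0.142 (2 of 3 over 0.1). As a replicate block the numbers gave 2 rises and 1 fall at 0 h in siIGF2BP2, 34 falls in siControl decay and 22 rises in siIGF2BP1. The block moved no other count by over 1.5 times. Of the single members named, the block ended the call of PSMG4 in siIGF2BP2 alone (0.11 on the log2 scale).

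Without 1 library in turn, the rises in the mean slope ranged from 1 to 2, rises at 0 h from 3 to 6 in siIGF2BP1, while siIGF2BP2 had rises of 0 to 0 at 0 h and falls of 0 to 1, rises over the time points from 2 to 5 in siIGF2BP2 and from 2 to 5 in siIGF2BP3 with 3 to 10 falls, slope differences in siIGF2BP3 from 0 to 4, and siIGF2BP2 against siIGF2BP3 from 7 to 11 higher and 5 to 9 lower. The medians ranged from -0.569 to -0.373 for siControl decay, -0.367 to -0.318 for its mean over conditions, 0.134 to 0.307 and 0.040 to 0.252 for slope differences in siIGF2BP1 and siIGF2BP2, 0.045 to 0.087 and -0.013 to 0.016 at 0 h in siIGF2BP1 and siIGF2BP3, 0.049 to 0.069, -0.015 to 0.006 and -0.033 to -0.015 over the time points in siIGF2BP1, siIGF2BP2 and siIGF2BP3, and 0.062 to 0.093 and 0.066 to 0.080 for siIGF2BP1 against siIGF2BP2 and siIGF2BP3. The shares of all genes in these fits are not given here, so the counts describe stability alone. With 2 libraries per group, differences near 0.05 on the log2 scale and members under about 3 CPM are at the limit of this depth.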
